A study of Homo sapiens with 42 samples.

Results

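NF-κB is a family of transcription factors, and the genes described here are 10 of its parts and brakes, chosen by name: the subunit genes NFKB1, NFKB2, RELA and RELB, the inhibitor genes NFKBIA, NFKBIE and NFKBIZ, and the feedback and induced genes TNFAIP3, TNFAIP2 and BIRC3. Of these 10 genes, 9 had a probe annotated to them, and 7 were above background and could be measured, of 8921 such genes in all (20043 genes had a probe). RELA, which encodes the main activating subunit, had a single probe that was above background on 1 of 42 arrays, and the probe of TNFAIP2 was above background on 0 of 42. The mRNA of BIRC3, which encodes an inhibitor of cell death, was not analysed here.

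Total RNA of 1205Lu cells, an established human line from a metastatic melanoma, was read on 42 single-colour Illumina bead arrays, 1 per sample. Treatment was with 0.5 µM AZD1152, a drug also called barasertib that acts mainly on Aurora kinase B, or with 0.05 µM SNS-314, which blocks the whole Aurora family of mitotic kinases. Each inhibitor was given for 6 h (n = 3), 12 h, 18 h, 24 h or 48 h (n = 4 each), and 4 control samples were taken at 0 h. All samples come from the same cell line, and no label states that replicates were cultured separately, so p-values measure the spread among these 42 arrays alone, which may be technical. A comparison with 0 h covers the inhibitor together with the hours in culture, and the effects of these cannot be told apart, and the 10 comparisons with 0 h share the same 4 control arrays.

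In resting cells, NF-κB dimers are held in the cytoplasm by inhibitors of the IκB family. Signals from receptors for tumour necrosis factor or interleukin-1 activate the IKK kinases, which mark IκB for destruction and free the dimers to enter the nucleus. The genes they switch on include those of their own inhibitors, so that mRNA of NFKBIA, NFKBIE and TNFAIP3 is commonly read as a gauge of pathway output, and melanoma cells are known for high resting NF-κB activity and secretion of inflammatory factors. These arrays measure mRNA only, not the location or the activity of the proteins.

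The stretches upstream of the gene starts are shown for NFKBIA, TNFAIP3 and NFKBIZ, which were among the members with the largest changes at 6 h. A κB element is the sequence that NF-κB dimers bind. Its consensus (10 bases) was searched on both strands in windows of 300 bases, 250 before and 50 after each start, from RefSeq on GRCh38.p14. Capitals mark matches, and the 250 bases before the start are printed 5′ to 3′ on the strand of the gene. NFKBIA, a minus-strand gene (chr14:35404750-35404999), held 1 match, and TNFAIP3, a plus-strand gene (chr6:137867009-137867258), held 2 matches. NFKBIZ, a plus-strand gene, held 1 match before each of its starts, in chr3:101827740-101827989 (upstream start) and chr3:101849264-101849513 (downstream start). The strands named are those of the genes, and the consensus of a match may read on either strand.
NFKBIA: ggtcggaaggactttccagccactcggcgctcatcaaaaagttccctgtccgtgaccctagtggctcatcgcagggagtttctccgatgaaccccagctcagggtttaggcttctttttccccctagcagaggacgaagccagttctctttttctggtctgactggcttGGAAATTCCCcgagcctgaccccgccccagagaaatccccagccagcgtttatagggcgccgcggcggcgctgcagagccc
TNFAIP3: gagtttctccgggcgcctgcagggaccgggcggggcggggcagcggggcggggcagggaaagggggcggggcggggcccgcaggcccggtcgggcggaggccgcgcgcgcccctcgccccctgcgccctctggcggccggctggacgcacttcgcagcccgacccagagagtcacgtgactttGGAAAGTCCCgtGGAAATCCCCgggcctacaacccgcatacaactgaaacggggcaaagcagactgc
NFKBIZ upstream start: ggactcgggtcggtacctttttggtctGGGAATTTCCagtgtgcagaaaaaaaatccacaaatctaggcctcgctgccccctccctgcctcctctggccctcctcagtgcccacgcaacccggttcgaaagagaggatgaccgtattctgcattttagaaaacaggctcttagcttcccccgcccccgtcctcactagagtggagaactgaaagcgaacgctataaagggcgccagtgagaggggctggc
NFKBIZ downstream start: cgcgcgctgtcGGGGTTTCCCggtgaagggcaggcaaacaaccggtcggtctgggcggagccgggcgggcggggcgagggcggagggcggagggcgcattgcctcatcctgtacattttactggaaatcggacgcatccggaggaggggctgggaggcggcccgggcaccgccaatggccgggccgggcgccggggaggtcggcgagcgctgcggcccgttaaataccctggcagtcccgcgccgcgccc
Of the 10 genes, 8 had at least 1 window and 6 of these 8 held a match (NFKB1, NFKB2, NFKBIA, NFKBIZ, TNFAIP3 and BIRC3), while 13.3% of the 27305 genes with a window did. By window, the members held a match in 8 of 13, and 11.3% of all 35116 windows held one. Matches may overlap, and NFKB2 has a pair that overlap. NFKBIE and RELB had no window. A match is a description of the letters and does not show binding.

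Values are log2 intensities after background correction and quantile normalization, and a probe counted as measured if it was above its array's background threshold on at least 3 arrays of 1 group. Median signals ran from 210.0 to 338.6 per array, with 20.5% to 30.4% of probes above background. Mean correlations of an array with its own group were lowest for the 4 AZD1152 arrays at 18 h (0.9715 to 0.9809), next to SNS-314 12 h replicate 4 (0.9796), and at least 0.9829 for the rest. SOX10, a transcription factor of the melanocyte lineage, was above background as 1 of 7 lineage markers listed (mean log2 intensity 12.44 to 12.81 over the groups), and CSPG4, S100A1 and AXL were the 3 of 6 melanoma and neural crest markers above background. Markers of other cell types were above background for CD68 of 7 leukocyte genes, PDGFRA and PDGFRB of 7 fibroblast genes, KRT10 of 6 keratinocyte genes and 0 of 5 endothelial genes. AXL averaged 12.40 and 12.27 at 48 h of AZD1152 and SNS-314, against 12.79 in the controls, and PDGFRA 11.11 and 10.97 at 24 h, against 10.29 in the controls, and their part in the results was not tested. In such bulk RNA, fewer cells of a type and less RNA per cell cannot be told apart.

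With both inhibitors, the mRNAs of the 6 measured genes other than NFKB2 fell within 6 h and stayed low to 24 h. They were higher again at 48 h than at 6 h. NFKB2 was also called lower from 6 to 24 h, but it was measured only through the 48 h groups. It is kept in the counts against 0 h, although its signals from 6 to 24 h were near or below background. NFKB1, NFKBIA, NFKBIE and NFKBIZ were above background on all 42 arrays, TNFAIP3 on 36, RELB on 34 and NFKB2 on 10. At 6 h, 7 of 7 were called lower with AZD1152, where 1.49% of all genes tested were called lower, and 7 of 7 with SNS-314, where 1.78% were. A call here is a Benjamini-Hochberg adjusted p under 0.05 in limma over all 8921 genes. The median log2 change of the 7 genes at 6 h was -1.10 with AZD1152 and -1.01 with SNS-314, beside medians over all genes of -0.0038 and 1.1e-05. The same 7 were called lower at 12 h (7 of 7 with each inhibitor, where 2.81% and 3.63% of all genes were with AZD1152 and SNS-314), at 18 h (7 of 7, beside 9.72% and 5.63%) and at 24 h (7 of 7, beside 9.19% and 10.7%). At 48 h, 1 of 7 was called lower with AZD1152 and 3 of 7 with SNS-314, when 21.7% and 23% of all genes were called lower, and with a background this high these counts are not read as a result about the members.

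**Figure D1:**
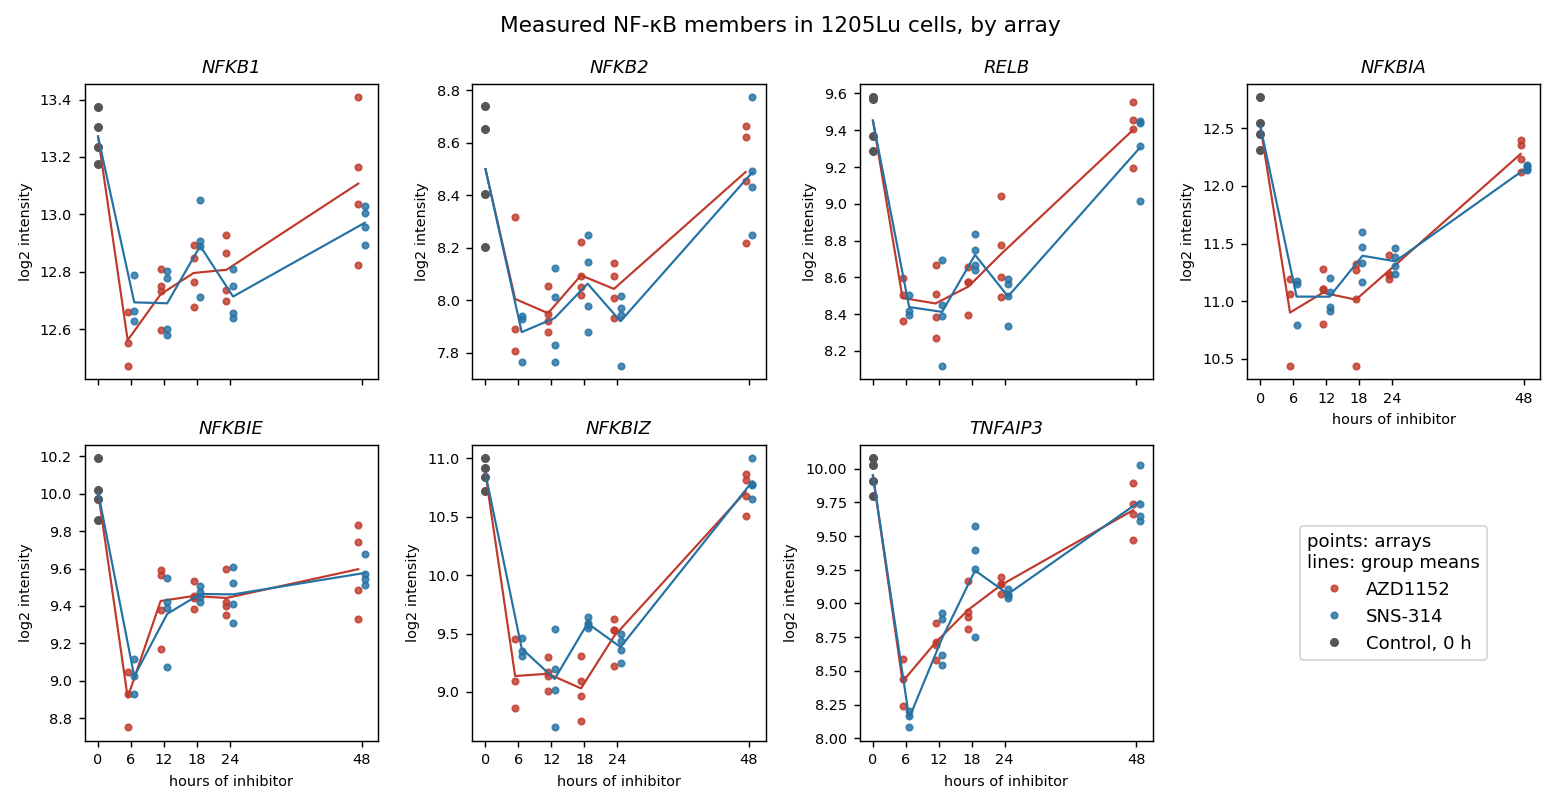
Log2 intensity of the 7 measured genes (vertical axes, each on its own scale) against hours of inhibitor (0 h is the control); points are arrays, lines join group means, red is AZD1152, blue is SNS-314 and grey the control. Levels drop by 6 h and return toward the control by 48 h, and at 48 h the NFKBIE arrays of both inhibitors still lie below all 4 controls. The NFKB2 signals from 6 to 24 h are near or below background.

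NFKBIA encodes IκBα, the classic inhibitor that NF-κB induces to switch itself off. At 6 h its log2 intensities were 11.20, 11.07 and 10.44 with AZD1152 treatment and 10.79, 11.17 and 11.15 with SNS-314, against 12.31, 12.54, 12.45 and 12.77 in the controls. No treated array reached the lowest control. This was a 3.07-fold lower signal with AZD1152 (log2 change -1.62 ± 0.15 SE, adjusted p = 1.45e-10, limma) and a 2.79-fold lower signal with SNS-314 (-1.48 ± 0.15, adjusted p = 1.51e-09). NFKBIA ranked 10 and 14 from the lowest change of 8921 genes at 6 h of AZD1152 and SNS-314. The log2 change with AZD1152 was -1.45 at 12 h, -1.51 at 18 h, -1.26 at 24 h and -0.24 at 48 h, and with SNS-314 it was -1.48, -1.13, -1.17 and -0.36 at the same times. At 48 h its arrays read 12.23, 12.40, 12.36 and 12.12 with AZD1152 treatment and 12.15, 12.19, 12.14 and 12.17 with SNS-314. The AZD1152 arrays overlapped the controls and were not called different (adjusted p = 0.169, 95% interval -0.53 to 0.04). All 4 SNS-314 arrays were below every control (adjusted p = 0.0355), a call that was lost without any 1 of the 4 SNS-314 arrays (adjusted p 0.0519 to 0.0652), without control replicate 2 (adjusted p = 0.065), without control replicate 4 (adjusted p = 0.144), and with no filter on dim probes (adjusted p = 0.0782).

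NFKBIZ encodes IκBζ, a nuclear member of the IκB family that assists NF-κB at a subset of its target genes. Its arrays read 9.45, 9.09 and 8.86 with AZD1152 at 6 h and 9.46, 9.35 and 9.31 with SNS-314, against 10.9988, 10.92, 10.84 and 10.72 in the controls. The groups were well apart, and the change was -1.73 ± 0.14 with AZD1152 (3.32-fold lower, adjusted p = 1.83e-12) and -1.50 ± 0.14 with SNS-314 (2.82-fold lower, adjusted p = 6.42e-11). NFKBIZ ranked between 6 and 13 from the lowest of 8921 genes in the comparisons with 0 h from 6 to 24 h. Its log2 change was -1.71, -1.84 and -1.39 at 12, 18 and 24 h of AZD1152, and -1.76, -1.28 and -1.48 at 12, 18 and 24 h of SNS-314. At 48 h the AZD1152 arrays read 10.86, 10.81, 10.67 and 10.51 and the SNS-314 arrays 11.0003, 10.78, 10.78 and 10.65. Both sets overlapped the controls, with changes of -0.15 (95% interval -0.41 to 0.10) and -0.07 (95% interval -0.32 to 0.19) for AZD1152 and SNS-314. A second NFKBIZ probe was above background on 0 of 42 arrays.

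NFKBIE encodes IκBε, a further inhibitor that acts on NF-κB dimers in the cytoplasm. At 6 h it read 9.05, 8.93 and 8.75 with AZD1152 treatment and 8.93, 9.12 and 9.03 with SNS-314, against 9.86, 10.02, 10.19 and 9.97 in the controls. The groups did not overlap, and NFKBIE changed by -1.10 ± 0.11 with AZD1152 (2.14-fold lower, adjusted p = 1.35e-09) and by -0.99 ± 0.11 with SNS-314 (adjusted p = 2.19e-08). By 12 h the log2 change was -0.58 with AZD1152 and -0.65 with SNS-314, and it was -0.56 and -0.55 at 18 h and -0.57 and -0.55 at 24 h. At 48 h NFKBIE read 9.74, 9.83, 9.48 and 9.33 with AZD1152 treatment and 9.55, 9.51, 9.68 and 9.57 with SNS-314. All 8 of these arrays were below the lowest control, and NFKBIE was the 1 member called lower at 48 h with both inhibitors (-0.41 ± 0.10, adjusted p = 0.00125 with AZD1152, and -0.43 ± 0.10, adjusted p = 0.000718 with SNS-314).

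TNFAIP3 encodes A20, a ubiquitin-editing enzyme that NF-κB induces and that shuts off signalling upstream of IKK. It read 8.59, 8.44 and 8.24 at 6 h of AZD1152 and 8.08, 8.17 and 8.20 at 6 h of SNS-314, against 9.80, 9.91, 10.08 and 10.03 in the controls. With SNS-314 none of the 3 arrays was above background at 6 h and with AZD1152 1 of 3 was. The AZD1152 change was -1.53 ± 0.13 (adjusted p = 6.37e-12). For SNS-314 the fall is a bound, at least 2.69-fold lower (adjusted p = 7.06e-14, measured means 8.15 against 9.95), set against the lowest signal above background on each array. Its return began earlier than that of NFKBIA or NFKBIZ by the group means: the log2 change was -1.24, -0.997 and -0.81 at 12, 18 and 24 h of AZD1152, and -1.21, -0.71 and -0.88 at the same times of SNS-314. At 48 h the arrays read 9.67, 9.90, 9.47 and 9.74 with AZD1152 treatment and 9.65, 9.74, 10.03 and 9.61 with SNS-314. They overlapped the controls, with changes of -0.26 (95% interval -0.50 to -0.02, adjusted p = 0.0769) and -0.19 (95% interval -0.44 to 0.05, adjusted p = 0.185).

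Among the subunits, RELB encodes the partner of the processed NFKB2 product in the slower, non-canonical branch of the pathway. Its arrays read 8.59, 8.51 and 8.36 at 6 h of AZD1152 and 8.50, 8.39 and 8.42 at 6 h of SNS-314, against 9.29, 9.57, 9.58 and 9.37 in the controls. These groups did not overlap, and 2 of 3 AZD1152 and 1 of 3 SNS-314 arrays were above background. RELB changed by -0.97 ± 0.12 with AZD1152 (1.95-fold lower, adjusted p = 3.29e-07) and by -1.01 ± 0.12 with SNS-314 (2.02-fold lower, adjusted p = 9.1e-08). The later log2 changes were -0.995, -0.90 and -0.72 at 12, 18 and 24 h of AZD1152 and -1.04, -0.73 and -0.96 at 12, 18 and 24 h of SNS-314. At 48 h RELB read 9.40, 9.19, 9.46 and 9.56 with AZD1152 treatment and 9.45, 9.31, 9.02 and 9.44 with SNS-314, with changes of -0.05 (95% interval -0.28 to 0.18) and -0.15 (95% interval -0.38 to 0.08).

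NFKB1 encodes the precursor of the p50 subunit of the canonical dimer. It read 12.66, 12.55 and 12.47 at 6 h of AZD1152 and 12.66, 12.79 and 12.63 at 6 h of SNS-314, against 13.17, 13.37, 13.23 and 13.30 in the controls. The groups did not overlap, and the change was -0.71 ± 0.10 with AZD1152 (1.64-fold lower, adjusted p = 3.34e-06) and -0.58 ± 0.10 with SNS-314 (1.49-fold lower, adjusted p = 0.000116). From 12 to 24 h its log2 change lay between -0.55 and -0.46 with AZD1152 and between -0.58 and -0.38 with SNS-314. At 48 h NFKB1 read 12.82, 13.41, 13.16 and 13.03 with AZD1152, a wide spread around the controls (change -0.16, adjusted p = 0.156), and 12.96, 12.89, 13.03 and 13.01 with SNS-314, all below the controls (-0.30 ± 0.09, adjusted p = 0.00761). Without AZD1152 48 h replicate 2, the highest of its group, NFKB1 (adjusted p = 0.0215) and TNFAIP3 (adjusted p = 0.0385) were also called lower at 48 h of AZD1152, which makes 3 of 7.

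NFKB2 encodes the precursor of the p52 subunit and was measured near the background. Its brightest probe was above background on 10 of 42 arrays (4 of 4 AZD1152 and 3 of 4 SNS-314 arrays at 48 h, 1 AZD1152 array at 18 h and 2 of 4 controls), and it counted as measured only through the 48 h groups. At 6 h it read 7.89, 8.32 and 7.81 with AZD1152 treatment and 7.77, 7.94 and 7.93 with SNS-314, all below background, against 8.40, 8.65, 8.74 and 8.20 in the controls. The AZD1152 arrays overlapped the controls at 6 h. With AZD1152 the signal was at least 1.02-fold lower (adjusted p = 0.0179), and no fold can be set for SNS-314 (adjusted p = 0.00124). The AZD1152 call at 6 h was lost without AZD1152 6 h replicate 1 (adjusted p = 0.122) or replicate 3 (adjusted p = 0.236), and without control replicate 2 (adjusted p = 0.0803) or 3 (adjusted p = 0.105), with no filter on dim probes (adjusted p = 0.0528) and in a fit of the 2 groups alone (adjusted p = 0.0871). At 18 h the calls were lost without control replicate 2 or 3 with both inhibitors (adjusted p 0.0532 to 0.0773), for AZD1152 also in a fit of the 2 groups alone (adjusted p = 0.0752), and for SNS-314 also without its replicate 1 (adjusted p = 0.0556). At 48 h NFKB2 read 8.22, 8.66, 8.45 and 8.62 with AZD1152 treatment and 8.49, 8.43, 8.25 and 8.77 with SNS-314, a range that the controls share. A second NFKB2 probe was above background on 7 arrays, 0 of them at 6 h, so that no change is given for it, and the other probe was above background on 0 arrays.

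**Figure D2:**
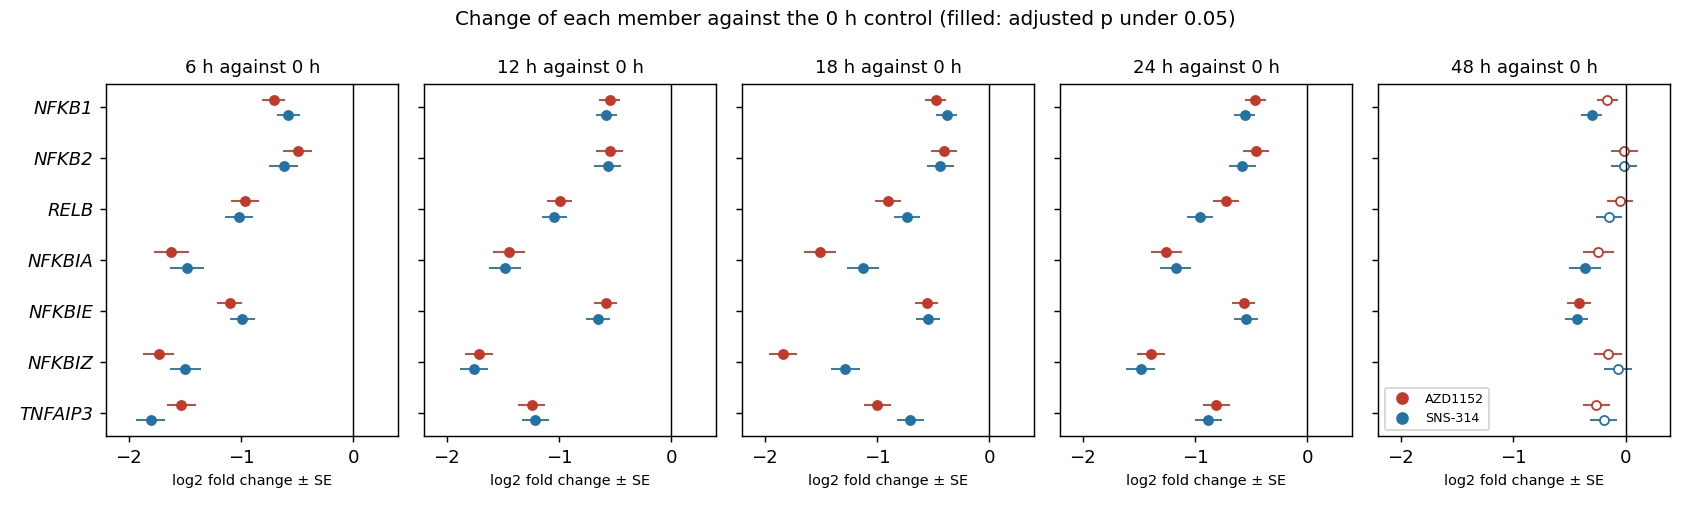
Log2 fold change of each gene against the 0 h control (horizontal axes) at each time, with bars for ± SE (n = 3 or 4 per inhibitor and time, 4 controls); filled points have an adjusted p under 0.05 in limma. All 7 genes lie left of 0 and are filled from 6 to 24 h, and at 48 h only NFKBIE is filled for both inhibitors; the NFKB2 points from 6 to 24 h, and TNFAIP3 at 6 h of SNS-314, are fitted values of signals at or below background.

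RELA was not measured here: its probe read 8.07, 8.06 and 8.21 at 6 h of AZD1152 and 7.89, 8.25 and 7.91 at 6 h of SNS-314, against 8.08, 7.96, 8.13 and 7.73 in the controls, all below background. TNFAIP2, which tumour necrosis factor induces in several cell types, read between 6.31 and 7.77 over all 42 arrays, below background on every one. Nothing is drawn from either about the level of its mRNA.

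Chips were inferred from the last 2 characters of each array's column header. By this reading, controls were hybridised on 2 of the 4 chips, with 2 controls on each of these. Within each of the 2 chips, 7 of 7 genes were lower than the mean of the chip's own controls at 6, 12, 18 and 24 h with both inhibitors, where 46% to 51.2% of all genes were. The array was also below each of the chip's 2 controls in all of these cases but NFKB2 at 6 h of AZD1152 on 1 chip. The share of all genes below each of the 2 controls was not counted, so that this is a description only. For the chips in turn, the 6 h medians of AZD1152 were -0.89 and -1.15, and those of SNS-314 were -1.01 and -1.08. At 48 h 7 and 4 of 7 genes were lower than that mean with AZD1152 in these chips (beside 49.6% and 49.8% of all genes) and 5 and 7 with SNS-314 (beside 49.7% and 49.4%), by medians of -0.20 and -0.15 for AZD1152, and of -0.20 and -0.31 for SNS-314.

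The return after the early fall was tested without control arrays, by setting 48 h against 6 h of the same inhibitor. NFKB2 was left out of this count, since it was measured only through the 48 h groups. The other 6 genes were called higher at 48 h than at 6 h: 6 of 6 with AZD1152, where 21.3% of all genes were called higher, and 6 of 6 with SNS-314, where 22.9% were. NFKBIZ rose by 1.58 ± 0.14 with AZD1152 (adjusted p = 1.43e-12) and by 1.43 ± 0.14 with SNS-314 (adjusted p = 1.64e-11), NFKBIA rose by 1.38 ± 0.15 and 1.12 ± 0.15, and TNFAIP3 rose by 1.27 ± 0.13 with AZD1152 and at least 2.35-fold with SNS-314. RELB rose by 0.91 ± 0.12 and 0.87 ± 0.12, NFKBIE by 0.69 ± 0.11 and 0.55 ± 0.11, and NFKB1 by 0.55 ± 0.10 and 0.28 ± 0.10. The NFKB1 call with SNS-314 (adjusted p = 0.0217) was lost without SNS-314 6 h replicate 1 (adjusted p = 0.0632) or 3 (adjusted p = 0.0843), without 48 h replicate 3 (adjusted p = 0.0517), with scaling to the 75th percentile (0.19, adjusted p = 0.175) and with no filter on dim probes (adjusted p = 0.0615).

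Of the 7 genes, 5 had no called rise between 6 and 24 h. Set against 6 h, 2 of 7 genes were higher at 24 h of AZD1152 (8.04% of all genes) and 2 of 7 at 24 h of SNS-314 (9.69%), and in both cases these were NFKBIE and TNFAIP3. NFKBIE rose by 0.53 ± 0.11 and 0.44 ± 0.11 over that interval, and TNFAIP3 by 0.72 ± 0.13 with AZD1152 and at least 1.46-fold with SNS-314. The AZD1152 count was 3 with the replicate number as a block, and 4 without AZD1152 6 h replicate 1. Set against 24 h and again without NFKB2, 5 of 6 were higher at 48 h of AZD1152 (13.9% of all genes) and 5 of 6 at 48 h of SNS-314 (13.2%), all but NFKBIE, which changed by 0.15 (adjusted p = 0.29) and 0.11 (adjusted p = 0.464). NFKBIZ rose by 1.24 ± 0.13 and 1.42 ± 0.13 in these last hours. The NFKB1 rise after 24 h (0.30 and 0.26) was lost with AZD1152 without its 24 h replicate 3 (adjusted p = 0.051) or its 48 h replicate 2 (adjusted p = 0.117), and with SNS-314 without any 1 of 24 h replicates 2 and 3 and 48 h replicates 1, 3 and 4 (adjusted p 0.0579 to 0.097), with scaling to the 75th percentile (adjusted p = 0.0848) and with no filter (adjusted p = 0.104). The comparisons with 24 h were added after the time courses had been seen.

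As a share of its 6 h change on the log2 scale, the change left at 24 h was 80.4% for NFKBIZ, 77.6% for NFKBIA, 75.1% for RELB and 65.4% for NFKB1 with AZD1152, but 53.1% for TNFAIP3 and 51.7% for NFKBIE. With SNS-314 these shares were 99.2%, 79.3%, 94.3%, 96.5%, 48.9% and 55.6% for the same genes in the same order. At 48 h the shares left with AZD1152 were 8.91% for NFKBIZ, 14.9% for NFKBIA, 5.24% for RELB, 23.1% for NFKB1, 16.9% for TNFAIP3 and 37.7% for NFKBIE. With SNS-314 they were 4.48% for NFKBIZ, 24.2% for NFKBIA, 14.6% for RELB, 52% for NFKB1, 10.8% for TNFAIP3 and 44% for NFKBIE. The shares for TNFAIP3 with SNS-314 rest on a 6 h level below background. Those for TNFAIP3 with AZD1152 rest on a 6 h level near background, with 1 of 3 arrays above it. The RELB shares do so as well, with 2 of 3 AZD1152 and 1 of 3 SNS-314 arrays above background at 6 h. These shares are descriptions and were not tested against each other.

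AZD1152 and SNS-314 were set against each other at each time, at doses that differ (0.5 and 0.05 µM). None of the 7 genes was called different at 6 h (0% of all genes), 12 h (0%), 18 h (0.0336%), 24 h (0%) or 48 h (0%). At 6 h their differences lay between -0.24 and 0.27, with 95% intervals reaching from -0.53 to 0.55, and the arrays of TNFAIP3 did not overlap (0.27, adjusted p = 0.999, with 1 of 3 AZD1152 and 0 of 3 SNS-314 arrays above background). At 12 h they lay between -0.03 and 0.07, at 24 h between -0.08 and 0.23 and at 48 h between -0.09 and 0.14, with all intervals of these 3 times between -0.37 and 0.46. The intervals leave room for differences of that size.

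The widest gap was NFKBIZ at 18 h, which read 8.76, 9.31, 9.09 and 8.97 with AZD1152 against 9.57, 9.64, 9.54 and 9.59 with SNS-314. The 2 groups did not overlap, and the difference was -0.56 (95% interval -0.81 to -0.30, adjusted p = 0.11). Each chip held 1 array of each inhibitor at 18 h, and NFKBIZ was lower with AZD1152 on 4 of 4 chips, by -0.81 to -0.33. The difference was called with chip as a fixed term of the model (adjusted p = 0.0153), with chip as a random block (adjusted p = 0.024) and with the replicate block (adjusted p = 0.0114). Replicate number and chip coincide at 18 h for both inhibitors, so these fits make much the same adjustment and are not separate support. This difference was called also without AZD1152 18 h replicate 2 (-0.65, adjusted p = 0.0244) or replicate 3 (-0.58, adjusted p = 0.0348). Of the 19 alternatives it was called in 5 and not called in 14 (adjusted p 0.0835 to 0.831, the highest in a fit of the 2 groups alone). NFKBIA (-0.38, adjusted p = 0.32) and TNFAIP3 (-0.29, adjusted p = 0.361) were also lower with AZD1152 by the means at 18 h but overlapped. At 18 h the differences of the 7 genes lay between -0.56 and 0.03. The AZD1152 arrays at 18 h correlated less with their own group than all other arrays but SNS-314 12 h replicate 4, and the part of this in the gap was not tested.

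**Figure D3:**
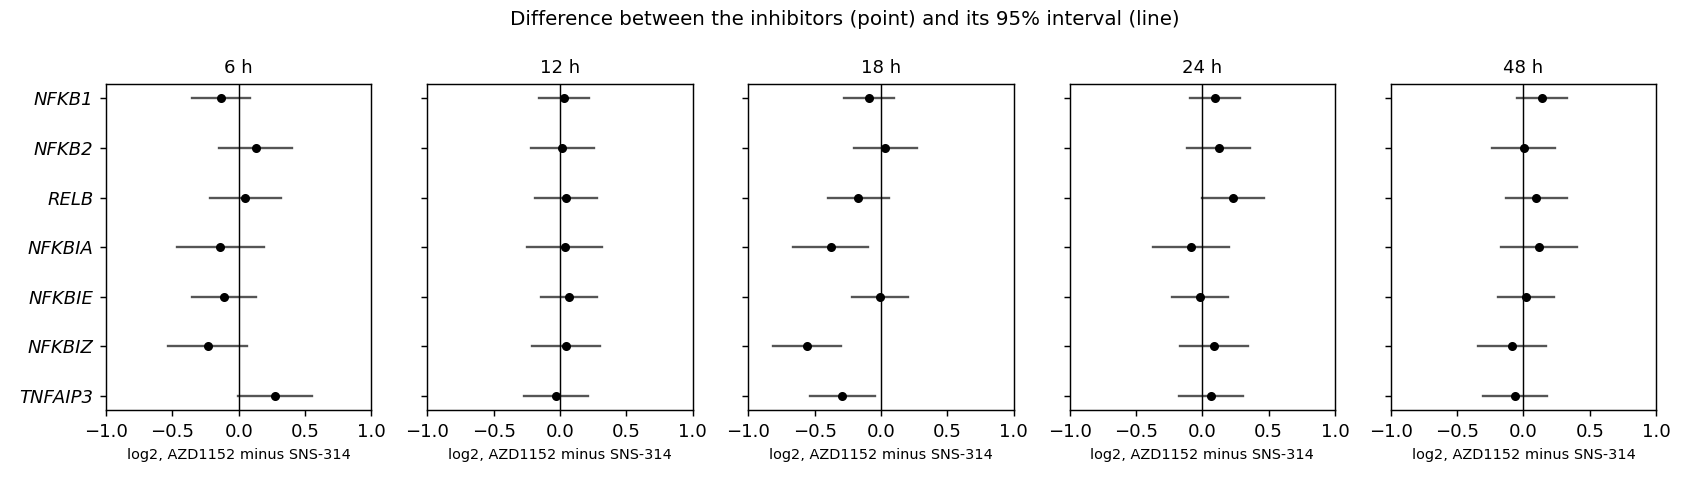
Log2 difference AZD1152 minus SNS-314 (horizontal axes) for each gene at each time, with its 95% interval from limma (n = 3 each at 6 h, 4 each later). Most intervals cross 0, and the widest gap is NFKBIZ at 18 h, at -0.56.

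Over the 11 group means, each gene followed the mean of the other 6 closely: Pearson r was 0.98 for NFKBIA and RELB, 0.95 for NFKB1 and NFKB2, 0.94 for NFKBIZ, 0.92 for TNFAIP3 and 0.80 for NFKBIE. The groups share chips and a time course, so these values describe a common profile only. NFKB2 was measured only through the 48 h groups, so its r, and the means that include it, rest partly on signals near or below background. The 5 other genes with the profile most like the mean of the 7 were ZC3H12A (r = 0.99), which encodes an RNase that degrades inflammatory mRNAs, IRAK2 (r = 0.97), a kinase of interleukin-1 receptor signalling, a probe annotated to MIR302C (r = 0.97), PTGS2 (r = 0.96), which encodes cyclooxygenase-2, and ZSWIM4 (r = 0.96). ZC3H12A and PTGS2 were measured only through the controls and the 48 h groups, where the profile is high. Their r values thus rest partly on signals near or below background from 6 to 24 h and are descriptions only. IRAK2 changed by -1.63 and -1.80 at 6 h and by -0.69 and -0.50 at 48 h of AZD1152 and SNS-314, and ZSWIM4 by -0.97 and -0.82 at 6 h and by -0.23 and -0.22 at 48 h.

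Other genes of the pathway were grouped by role, and their counts are to be read against all genes tested, of which 1.49% and 1.78% were called lower and 1.2% and 1.93% higher at 6 h of AZD1152 and SNS-314, and 21.7% and 23% lower and 20.8% and 22.3% higher at 48 h. Counts at 48 h, against shares this high, are given as descriptions only. Of 16 measured receptors, adaptors and kinases upstream of NF-κB, 0 were called in either direction at 6 h of AZD1152 and 1 was lower at 6 h of SNS-314, with medians of -0.04 and -0.07. The 1 called was IKBKE, an IKK-related kinase, at -0.53 ± 0.14 (adjusted p = 0.0235, and -0.48, adjusted p = 0.0571 with AZD1152). That call was lost without SNS-314 6 h replicate 2 (adjusted p = 0.095) or 3 (adjusted p = 0.0958) or control replicate 3 (adjusted p = 0.0788), and with no filter (adjusted p = 0.0623). With AZD1152 IKBKE was called in a fit of the 2 groups alone (adjusted p = 0.0157) and with chip as a random block (adjusted p = 0.0427). TRAF3, a brake on the non-canonical branch, changed by -0.33 and -0.20 at 6 h, and TNFRSF1B, a receptor for tumour necrosis factor, by -0.25 and -0.24, none of them called, although TRAF3 was with AZD1152 under the replicate block (adjusted p = 0.046). At 48 h 2 of the 16 were lower with each inhibitor (beside 21.7% and 23% of all genes). Of the 16, TRADD and TRAF6 were measured only through treated groups, and TRAF3 and MYD88 only through treated groups at 12 h or later. Nothing is drawn from the 6 h values of TRAF3. IL1R1, the interleukin-1 receptor, is also among the 16 and was measured only through treated groups at 18 h or later. It averaged 8.54 at 48 h of AZD1152 and 8.61 at 48 h of SNS-314 (3 of 4 arrays above background in each), against 7.82 in the controls (0 of 4), where no fold can be set. CHUK, which encodes the IKKα kinase, changed by -0.49 ± 0.11 with each inhibitor. TNFRSF1B changed by -0.33 ± 0.13 with AZD1152 (adjusted p = 0.0332) and by -0.60 ± 0.13 with SNS-314, and its call with AZD1152 ended without 48 h replicate 2, 3 or 4 of that inhibitor or control replicate 2 or 3, with scaling to the 75th percentile or with no filter (adjusted p 0.0658 to 0.0834).

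Of 11 measured other subunits, inhibitors and negative regulators, 3 and 4 were lower at 6 h of AZD1152 and SNS-314 (beside 1.49% and 1.78% of all genes) and 5 and 5 at 48 h (beside 21.7% and 23%), with 0 higher. Of the 11, ZC3H12A was measured only through the controls and the 48 h groups, and CYLD only through the 48 h groups. TNIP2 was measured only through treated groups at 12 h or later. ZC3H12A was not above background on any array at 6 h and was at least 2.19-fold and 2.10-fold lower, and it was still lower at 48 h (-0.62 ± 0.13 and -0.61 ± 0.13). BCL3, a nuclear IκB family member, changed by -0.60 ± 0.11 and -0.62 ± 0.11 at 6 h and by -0.59 ± 0.10 and -0.45 ± 0.10 at 48 h. TNIP1, a partner of A20, changed by -0.49 ± 0.11 and -0.56 ± 0.11 at 6 h, and the first of these calls ended without AZD1152 6 h replicate 2 (adjusted p = 0.0609) or 3 (adjusted p = 0.0626). NFKBIB, which encodes IκBβ, changed by -0.48 ± 0.11 and -0.32 ± 0.11 at 48 h, and its SNS-314 call was lost without SNS-314 48 h replicate 2 (adjusted p = 0.0554). NFKBIB was also among those called lower at 6 h of SNS-314. That call was lost without any 1 of the SNS-314 6 h arrays or the controls (adjusted p 0.0551 to 0.146). It was lost also with scaling to the 75th percentile (adjusted p = 0.0855) and with no filter (adjusted p = 0.111).

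Among ligands that start the pathway, 3 of 8 were measured. IL1A and IL1B, which encode both forms of interleukin-1, fell with both inhibitors at 6 h: the change of IL1B was -1.68 ± 0.14 with AZD1152 and -1.78 ± 0.14 with SNS-314, and that of IL1A -1.51 ± 0.17 and -1.68 ± 0.17 (all with adjusted p of 1.04e-08 or less). The median of the 3 was -1.51 and -1.68 at 6 h, and with no filter on dim probes, where 7 ligands entered, it was -0.11 and -0.02. At 48 h IL1A was higher than at 0 h, by 0.64 ± 0.16 with AZD1152 and 0.51 ± 0.16 with SNS-314 (adjusted p = 0.000899 and adjusted p = 0.0066), while IL1B changed by 0.20 and 0.13 and was not called. TNFSF13B, a B cell survival factor, changed by 0.08 and -0.02 at 6 h and by 0.20 and 0.21 at 48 h, not called. It was measured only through treated groups at 12 h or later, so nothing is drawn from these values about a change of its mRNA.

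Of 9 measured secreted NF-κB target genes, 8 and 7 were lower at 6 h of AZD1152 and SNS-314 (beside 1.49% and 1.78% of all genes, medians -1.65 and -1.61). With no filter on dim probes 18 entered, and these medians were -0.46 and -0.32. Of the 9, CCL5 was measured only through treated groups at 12 h or later. At 48 h 4 were lower and 1, CX3CL1, was higher with each inhibitor (beside 21.7% and 23% lower and 20.8% and 22.3% higher of all genes). The 48 h medians were -0.15 and -0.06, and over the alternatives they ranged from -0.29 to -0.06 with AZD1152 and from -0.33 to 0.01 with SNS-314. At 6 h the changes were -2.77 ± 0.33 and -2.59 ± 0.33 for CXCL1 (2 of 3 arrays above background in each group) and -2.17 ± 0.19 and -2.30 ± 0.19 for CXCL8, both neutrophil attractants. CCL2, a monocyte attractant, changed by -3.40 and -3.43 at 6 h and was the furthest from the control at 48 h (-1.66 ± 0.15 and -1.73 ± 0.15), followed by CXCL1 (-1.45 ± 0.31 and -1.44 ± 0.31) and IL6, which encodes interleukin-6 (-0.87 ± 0.12 and -1.23 ± 0.12). CXCL8 changed by -0.58 ± 0.17 and -0.63 ± 0.17 at 48 h.

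Of 15 measured target genes whose products stay in or on the cell, 7 and 6 were lower (beside 1.49% and 1.78% of all genes) and 1 was higher (beside 1.2% and 1.93%) at 6 h of AZD1152 and SNS-314. The medians were -0.46 and -0.26, and -0.28 with AZD1152 when no filter was set and 20 genes entered. ICAM1, an adhesion receptor for leukocytes, changed by -1.59 ± 0.18 and -1.82 ± 0.18, SOD2, the mitochondrial superoxide dismutase, by -1.12 ± 0.17 and -1.05 ± 0.17, and PTGS2 was at least 1.64-fold and 1.58-fold lower. PTGS2 was measured only through the controls and the 48 h groups. BCL2L1, which encodes the survival protein BCL-xL, was the 1 gene higher at 6 h (0.54 ± 0.12 and 0.59 ± 0.12), and it was lower at 48 h (-0.40 ± 0.11 and -0.53 ± 0.11). ICAM1 (0.14 and 0.28) and PTGS2 (0.20 and 0.15) were not called at 48 h. CD83, a surface molecule of activated immune cells, was still lower at 48 h (-0.45 ± 0.10 and -0.47 ± 0.10), and RIPK2, a kinase that signals to NF-κB, was higher (0.44 ± 0.11 and 0.46 ± 0.11).

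Immediate early genes, which other signals than NF-κB also switch on within minutes, had 1 of 9 members lower at 6 h with each inhibitor (beside 1.49% and 1.78% of all genes, medians -0.04 and -0.06). This was EGR1, at -0.45 ± 0.12 (adjusted p = 0.0266) and -0.42 ± 0.12 (adjusted p = 0.0398). The EGR1 call with AZD1152 was lost without AZD1152 6 h replicate 2 or 3 or control replicate 1 or 4 (adjusted p 0.0529 to 0.26), and with SNS-314 without any 1 of its 3 arrays or control replicate 1, 2 or 4 (adjusted p 0.0649 to 0.163). Both calls were lost with scaling to the 75th percentile (adjusted p = 0.0942 and adjusted p = 0.118) and with no filter (adjusted p = 0.0761 and adjusted p = 0.11). DUSP1 (0.22 and 0.23) and JUN (-0.27 and -0.06) were not called at 6 h. At 48 h EGR1 was higher, by 0.66 ± 0.11 with AZD1152 and 0.64 ± 0.11 with SNS-314. With SNS-314, DUSP1 (-0.39, adjusted p = 0.0165) and JUN (-0.30, adjusted p = 0.0358) were lower, while with AZD1152 they changed by -0.12 and -0.11 and were not called. The DUSP1 call was lost without SNS-314 48 h replicate 1 or control replicate 2 or 3 (adjusted p 0.0508 to 0.0736), and the JUN call without SNS-314 48 h replicate 2, 3 or 4 or control replicate 1, 2 or 3, with no filter and with chip as a fixed term or a random block (adjusted p 0.051 to 0.0982). ATF3 and FOSB are among the 9, but they were measured only through treated groups at 12 h or later, so that no change is given for them. ATF3 averaged 9.40 and 9.24 at 48 h of AZD1152 and SNS-314, against 8.34 in the controls, and FOSB 8.84 and 8.67, against 8.14, each above background on 1 of 4 control arrays.

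**Figure D4:**
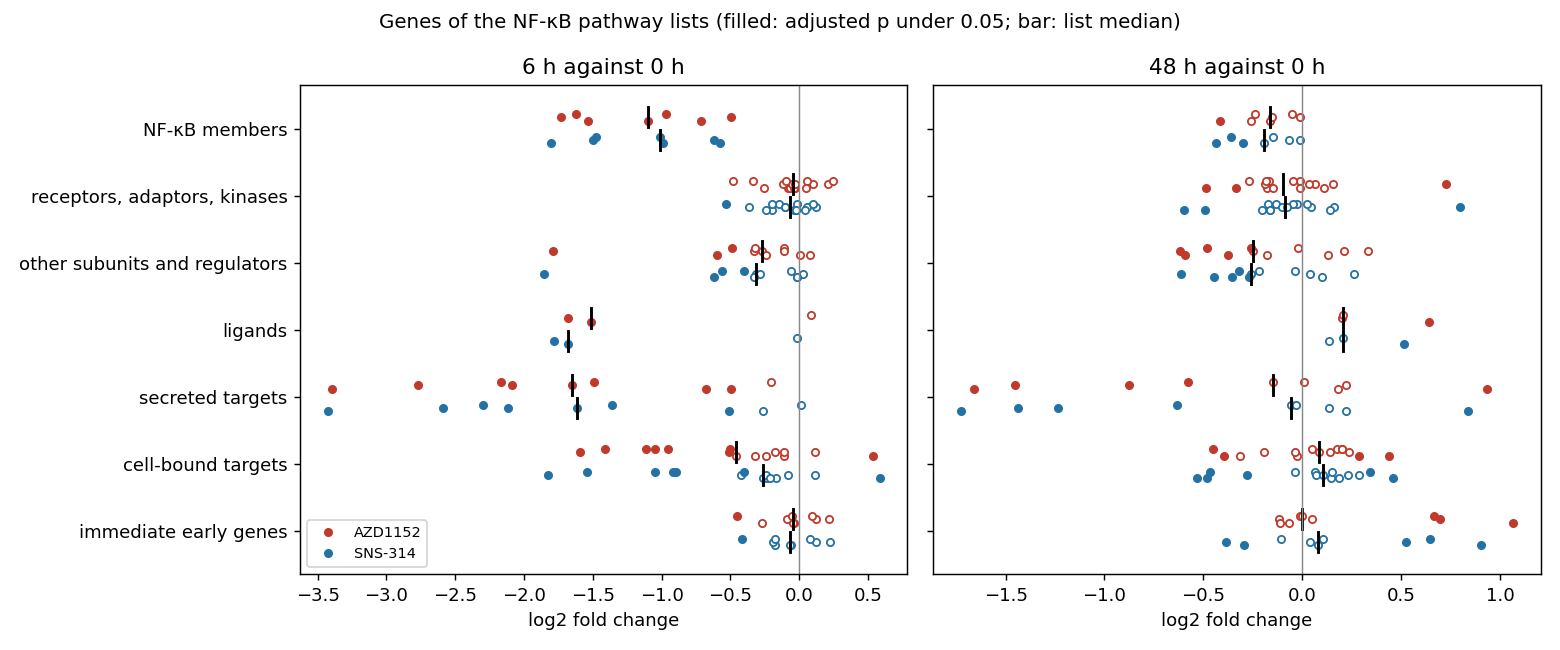
Log2 fold change against the 0 h control (horizontal axes) at 6 h and 48 h for each measured gene of the pathway lists (rows), red for AZD1152 and blue for SNS-314; filled points have an adjusted p under 0.05 in limma and black bars are list medians. At 6 h the NF-κB genes, the ligands and the secreted targets lie furthest left, with medians of the measured genes from -1.01 to -1.68 (with no filter, ligands -0.11 and -0.02, secreted targets -0.46 and -0.32), while upstream genes and immediate early genes have medians between -0.07 and -0.04.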

How the data were processed

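RNA of 42 samples was labelled with biotin and hybridised to Illumina arrays, per the labels' protocols. The authors deposited a table of non-normalized intensity per probe (47312 probes, 0 negative values, no background subtracted, per the file headers and values) and a table of log2 values, quantile normalized between arrays (median 8.15 on each), made by steps that no label or header records. The intensity table has 2 header lines that conflict, and the second was used, since it matched the deposited log2 columns for 42 of 42 arrays. Intensities were corrected by normexp (offset 50), quantile normalized and log2 transformed in limma 3.58.1 under R 4.3.3.

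The tables hold no detection p-values, so a background threshold per array was set at the 95th percentile of background, from the mode and lower flank of the signal. Probes above it on at least 3 arrays of 1 group were kept (13489), and a gene was read from its brightest such probe. Of all probes 30110 had 1 symbol, 8 several and 17194 none, and probes without exactly 1 were left out. Symbols were updated through RefSeq (GRCh38.p14). One group-means model over 42 arrays gave 17 comparisons and 4 added later (24 h against 6 h, 48 h against 24 h). The number of arrays limits precision, and the fit was tested on simulated data.

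The members, the gene lists and the rules were chosen with earlier results of these data known. Genes are named if they are members, if they are among the 3 of a list with the greatest absolute change at 6 h or at 48 h (mean of both inhibitors), or if they are the 5 with group means most like those of the members. Promoters are shown for members with the largest 6 h change. Other members of the lists are given as counts.

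Replicate numbers come from the titles, and chips were inferred from the last characters of the column headers. Residuals of same-numbered arrays correlated at over 0.1 in every pair for the inhibitors at 6, 12 and 24 h, for 48 h against 6 h with both inhibitors, and for 24 h against 6 h and 48 h against 24 h of AZD1152, and not for comparisons with 0 h. Alternatives were other corrections, normalizations, filters, probe rules and variances, the deposited values, a fit of the compared groups alone, a block for replicate or for chip, and each array left out.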

Additional observations from a re-analysis of the deposited data

Results flagged for a closer look

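No value of the 7 measured NF-κB genes stood apart from its group in any of the 63 groups of 4 arrays tested. Among the other named genes 2 of 135 groups held an array whose distance to its nearest neighbour took most of the group's range, where chance flags about 1 in 20. IL1R1 read 8.41 on AZD1152 48 h replicate 2, against 8.57 to 8.60 on the other 3 arrays of that group (ratio 0.849). CXCL1 read 9.08 on SNS-314 48 h replicate 2, against 9.71 to 9.77 on the other 3 (ratio 0.912).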

How the results depend on the processing

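Of the 90 called changes of the 7 genes, 0 turned direction under any alternative, and 1727 of 1760 alternative values stayed on their side of the threshold or, within a chip, kept direction with no test. The 90 include the NFKB2 rises at 48 h against 6 h and against 24 h. These were left out of the counts of the return, since NFKB2 was measured only through the 48 h groups, and their stability is not read as a result. The 33 losses fell on NFKB2 at 6 and 18 h, NFKB1 after 6 or 24 h, and NFKBIA at 48 h of SNS-314. With only probes above background on all 42 arrays kept, 4 members were measured, and 4 were called lower at 6, 12, 18 and 24 h with each inhibitor. In that setting 4 were higher at 48 h than at 6 h, 1 was higher at 24 h than at 6 h and 3 were higher at 48 h than at 24 h, with each inhibitor, as fewer genes were tested. In a fit of the 2 groups alone, 2 members were lower at 48 h of AZD1152. With 1 array left out, that count ranged from 1 to 3, and the count of members higher at 24 h than at 6 h of AZD1152 from 2 to 4. Between the inhibitors at 18 h, 1 member (NFKBIZ) was called with the replicate block (adjusted p = 0.0114), with chip as a fixed term (adjusted p = 0.0153) and with chip as a random block (adjusted p = 0.024), and 0 to 1 with 1 array left out. The block and chip fits make much the same adjustment there, since replicate number and chip coincide at 18 h. Besides that NFKBIZ call at 18 h, the replicate block gave 3 members higher at 24 h than at 6 h of AZD1152 and changed no other count of called members. Values near 0 changed sign: NFKB2 at 48 h ranged from -0.11 to 0.079 with AZD1152 and from -0.11 to 0.068 with SNS-314 with 1 array left out, RELB at 48 h of AZD1152 from -0.105 to 0.019, TNFSF13B at 6 h of SNS-314 from -0.076 to 0.023 and JUN from -0.18 to 0.033. NFKBIZ at 48 h of SNS-314 was 0.00020 with chip as a fixed term. Counts over all genes moved by more than 1.5 times in several comparisons: 133 lower at 6 h of AZD1152 became 87 with scaling to the 75th percentile and 204 with the replicate block, 159 at 6 h of SNS-314 ranged from 97 with no filter to 237 with the replicate block, and 867 at 18 h of AZD1152 became 323 in a fit of the 2 groups alone. At 12 h 251 became 159 with no filter for AZD1152 and 324 became 165 in a fit of the 2 groups alone and 491 with the replicate block for SNS-314, and 502 at 18 h of SNS-314 became 322 with scaling to the 75th percentile. Between the inhibitors at 18 h 3 ranged from 0 in a fit of the 2 groups alone to 14 with chip as a fixed term, and 0 became 1 at 6 h with the replicate block and at 48 h with no filter. The causes were not tested. Genes near background, such as NFKB2, have only bounds.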
